A study of Mus musculus with 6 samples.

Results

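The genes of the phagocyte NADPH oxidase and of the pentose phosphate pathway were followed through RNA sequencing of irradiated mouse bone marrow cells. They were 5 oxidase genes (Cybb, Cyba, Ncf1, Ncf4 and Rac2) and 4 enzyme genes that supply the oxidase with NADPH (G6pdx, Pgd, Taldo1 and Tkt). They were chosen by symbol, and all 9 had 1 row each among the 30733 gene symbols of every library. The cells were sorted from the marrow of wild-type mice after 5 Gy of total body irradiation and are labelled as haematopoietic stem cells (HSCs, the cells that renew all blood lineages). They had been separated by surface MHC class II, which displays peptides to helper T cells, into MHCII-hi cells (3 libraries) and MHCII-lo cells (3 libraries). Both groups were wild type and irradiated, so the comparison is between cell fractions and not between irradiated and unirradiated marrow. The age of the mice, the sort gates and the time after irradiation were not given in the labels. Nor do they state if each replicate was a different mouse, so the p-values rest on a spread between libraries that may be technical alone.

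The phagocyte oxidase is an enzyme that moves electrons from NADPH across a membrane to oxygen and so makes superoxide, the first step of the oxidative burst with which neutrophils and macrophages kill microbes. Its membrane core, a dimer of the Cybb and Cyba products, is idle until cytosolic subunits, among them the products of Ncf1 and Ncf4, and the small GTPase Rac dock onto it. The NADPH is made largely by the oxidative arm of the pentose phosphate pathway, through glucose-6-phosphate dehydrogenase (G6pdx) and 6-phosphogluconate dehydrogenase (Pgd). The non-oxidative arm, run by transaldolase (Taldo1) and transketolase (Tkt), turns the pentose products back into glycolytic sugars. In stem cells low levels of reactive oxygen are known to go with quiescence.

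All 9 genes were lower in MHCII-hi cells. The 5 oxidase genes together summed to 596 ± 4.11 FPKM in MHCII-hi cells and 808 ± 20.4 FPKM in MHCII-lo cells, and the 4 enzyme genes to 378 ± 3.39 FPKM in MHCII-hi and 539 ± 4.40 FPKM in MHCII-lo cells (SD, n = 3 libraries each). FPKM (fragment counts divided by transcript length and by library size) is a level per length, so these values can be compared between genes. In limma with Benjamini-Hochberg adjustment over 12110 tested genes, 9 of 9 fell, where 58.6% of all tested genes were called, 33.1% lower and 25.5% higher in MHCII-hi. The groups did not overlap for any of the 9, and the MHCII-hi libraries all lay below the MHCII-lo libraries for 36.8% of tested genes and all above them for 29.0%. The median log2 change of the 9 genes was -0.46, and that of all tested genes was -0.04. Abundant genes fell more often in general: of 392 tested genes with a mean level between those of the lowest and highest of the 9, 58.4% fell, and their median log2 change was -0.20. That comparison by level was chosen after the data were seen and is a description with no test. Every log2 change below is a difference of mean log2(FPKM + 1), MHCII-hi less MHCII-lo.

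**Figure D1:**
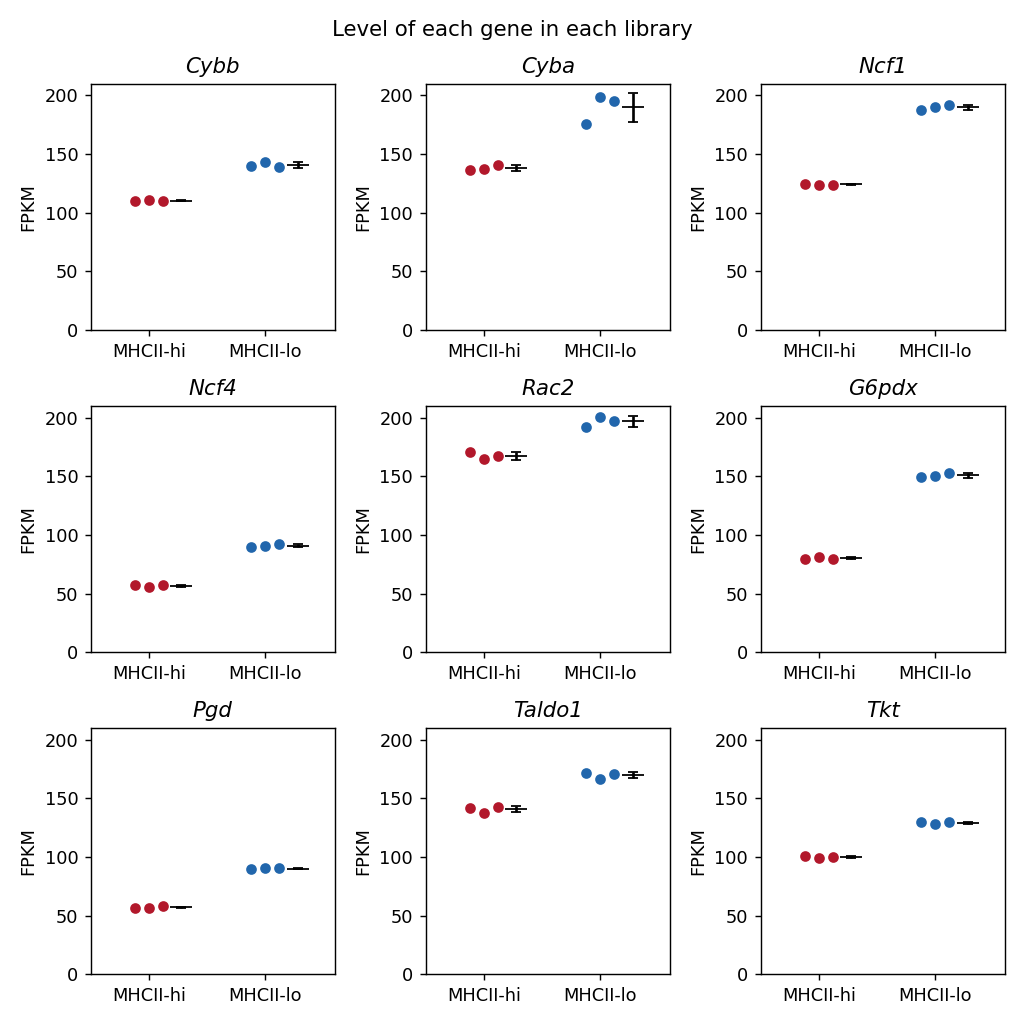
FPKM of the 9 genes in each library (points; 3 MHCII-hi libraries left, 3 MHCII-lo libraries right), with the mean and SD of each group (black). Every MHCII-hi library lies below every MHCII-lo library for each gene, and G6pdx shows the widest gap, with a mean of 80.2 FPKM in MHCII-hi and 151 FPKM in MHCII-lo.

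The sorted cells carried markers of several blood cell types, of which some fell as the 9 genes did and others rose. The counts of markers below stand beside 33.1% of all tested genes that fell and 25.5% that rose. With immunoglobulin genes left out of the scaling these shares were 17.6% and 40.5%. Of 13 HSC markers, 7 (Slamf1, Procr, Mecom, Fgd5, Hoxb5, Mycn and Ctnnal1) had a mean under 1 FPKM and none of these exceeded 0.72 FPKM in any library, while the summed level of all 13 was 72.1 to 77.6 FPKM in MHCII-hi and 30.0 to 30.8 FPKM in MHCII-lo. Of the 6 tested HSC markers 5 rose and 1 did not pass, and most of the difference in the sum lay in Ly6a, the gene of the surface antigen Sca-1, at a mean of 35.5 FPKM in MHCII-hi and 2.50 FPKM in MHCII-lo. Of 20 neutrophil markers 20 fell, their median log2 change was -1.40, and their sum was 16610 to 17008 FPKM in MHCII-hi and 41144 to 41836 FPKM in MHCII-lo. Of 8 neutrophil precursor markers 8 fell (6 fell and 1 rose with immunoglobulin genes left out of the scaling), with a median of -0.40 and a sum of 4359 to 4477 FPKM in MHCII-hi and 6160 to 6297 FPKM in MHCII-lo. The monocyte and macrophage markers were mixed, with 6 that fell, 5 that rose and 1 that did not pass of 12 tested among 16, and their sum was 2330 to 2405 FPKM in MHCII-hi and 3418 to 3441 FPKM in MHCII-lo. Most of the difference in that sum lay in Lyz2, at a mean of 1762.5 FPKM in MHCII-hi and 2652 FPKM in MHCII-lo. In the other direction, 9 of 9 eosinophil markers rose, with a sum of 7616 to 7778 FPKM in MHCII-hi and 2800 to 2856 FPKM in MHCII-lo. Of 10 plasma cell markers 9 rose and 1 fell, with a sum of 1550 to 1559 FPKM in MHCII-hi and 106 to 110.1 FPKM in MHCII-lo. The B cell markers summed to 53.4 to 56.7 FPKM in MHCII-hi and 7.24 to 8.39 FPKM in MHCII-lo, and the erythroid markers to 173 to 178 FPKM in MHCII-hi and 329 to 339 FPKM in MHCII-lo. Among the tested markers, 5 of 6 basophil and mast cell, 5 of 5 dendritic cell and 5 of 6 T and NK cell genes rose. No marker of these lists was at 0 in every library. The oxidase is a known product of neutrophils, monocytes and eosinophils, and the part of these cell types in the results below was not tested. In such bulk samples fewer cells of a type and less RNA per cell cannot be told apart. Immunoglobulin genes took 23.4% to 23.7% of summed FPKM in MHCII-hi and 0.493% to 0.502% in MHCII-lo libraries, which lowers every other gene's share in MHCII-hi. Scaling each library to its sum without those genes moved the median change of all tested genes by 0.15. The plot of the log2 changes of the 9 genes shows both scalings for each of them. In the text both are given for some genes only, and a gene without a scaled value can still depend on the scaling. Cybb changed by -0.35 as deposited and -0.17 so scaled, and Rap1b by -0.24 and -0.06 on the log2 scale.

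The catalytic subunit of the oxidase is gp91phox, the product of Cybb (chromosome X, 9435252 to 9487771, minus strand, GRCm38). Cybb stood at 110.4, 111 and 110.3 FPKM in MHCII-hi and at 140.2, 144 and 139 FPKM in MHCII-lo. The MHCII-hi libraries were nearly equal, with a coefficient of variation of 0.191%, and all 3 lay below the lowest MHCII-lo library. The mean was 21.5% lower than in MHCII-lo, and the log2 change was -0.35 ± 0.02 (SE; limma adjusted p = 1.56e-05). Its promoter is shown because Cybb is the gene of the core most restricted to blood phagocytes, and the transcription factor PU.1 is known to act on it. The window from RefSeq (GRCm38.p6, chrX:9469275-9469574, minus strand) runs from 250 bases before to 50 bases after the RefSeq start, which lies inside the gene span given above, and capitals mark the only match to the PU.1 core GAGGAA, read here on the other strand.
Cybb: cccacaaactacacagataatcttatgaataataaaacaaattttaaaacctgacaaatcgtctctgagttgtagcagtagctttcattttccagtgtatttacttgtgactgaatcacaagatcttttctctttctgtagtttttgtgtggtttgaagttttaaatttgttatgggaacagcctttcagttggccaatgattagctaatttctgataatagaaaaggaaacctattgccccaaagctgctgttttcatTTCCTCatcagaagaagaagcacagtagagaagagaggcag
The match begins 10 bases into the transcript. Of 32851 promoter windows of this length, 28.3% hold GAGGAA on either strand, so such a match is common, and it is a description of the letters and not of binding. The window has a GC content of 35.3%, against a median of 52.7% over all windows (quartiles 45.7% and 61.7%).

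Cyba (chromosome 8, 122424776 to 122432930, minus strand) encodes p22phox, the partner that stabilises gp91phox and anchors the cytosolic subunits. It stood at 136, 137 and 141 FPKM in MHCII-hi and at 176, 199 and 195 FPKM in MHCII-lo. MHCII-lo replicate 1 was the lowest of its group, which gave Cyba the widest spread of the 9 genes, with a coefficient of variation of 6.46% in MHCII-lo. Even so, the groups did not overlap, and the log2 change was -0.46 (SE 0.05, limma adjusted p = 2.05e-04). Within a library Cyba stood at 1.25 ± 0.0242 times Cybb in MHCII-hi and at 1.35 ± 0.082 times in MHCII-lo (SD, n = 3). The ranges overlapped through MHCII-lo replicate 1 alone, at 1.255, where the other MHCII-lo libraries were at 1.386 and 1.406 and the highest MHCII-hi library was at 1.277. The two-sided exact permutation test gave p = 0.20, in a design that cannot go below 0.10, so it leaves undecided if the changes of the 2 chains differed.

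Ncf1 and Ncf4, the cytosolic subunits, had larger log2 changes than the membrane core. Ncf1 (chromosome 5, 134220053 to 134229625, minus strand) encodes p47phox, which is phosphorylated on activation and carries the cytosolic complex to the membrane. Its levels were 125, 124 and 124 FPKM in MHCII-hi and 188, 190.0 and 192 FPKM in MHCII-lo. All 3 MHCII-hi libraries lay far below the lowest MHCII-lo library. The mean was 34.6% lower, and the log2 change was -0.61 ± 0.02 (SE; limma adjusted p = 5.18e-07). Ncf4 (chromosome 15, 78244801 to 78262580, plus strand) encodes p40phox, which binds a phosphoinositide of the phagosome membrane. Ncf4 stood at 56.9, 56.0 and 57.4 FPKM in MHCII-hi and at 89.3, 90.8 and 91.9 FPKM in MHCII-lo, so that every library of one group was far from every library of the other. It was the oxidase gene with the largest change, 37.4% lower in MHCII-hi, and its log2 change was -0.67 ± 0.02 (SE; limma adjusted p = 1.05e-06).

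Rac2 (chromosome 15, 78559167 to 78572783, minus strand), which encodes the blood-cell Rac GTPase that switches the oxidase on, moved least. It lies 297 kb from Ncf4. Rac2 stood at 170.3, 164 and 167 FPKM in MHCII-hi and at 192, 201 and 197 FPKM in MHCII-lo. The 2 groups stayed apart by more than their own ranges, and the log2 change was -0.23 (SE 0.02, limma adjusted p = 2.39e-04). This call rested on the scaling: with libraries scaled without immunoglobulin genes the log2 change of Rac2 was -0.06 (SE 0.03, limma adjusted p = 0.0977), while the other 8 genes still fell. Under that scaling 17.6% of tested genes fell and 40.5% rose, and the median log2 change of the 9 genes was -0.28, against 0.11 for all tested genes.

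Glucose-6-phosphate dehydrogenase is the entry and the rate-limiting step of the pentose phosphate pathway, and its gene showed the largest change of the 9. G6pdx (chromosome X, 74409483 to 74429194, minus strand) stood at 79.6, 81.0 and 79.9 FPKM in MHCII-hi and at 149, 149.9 and 153 FPKM in MHCII-lo. It was 46.8% lower in MHCII-hi, its log2 change was -0.90 ± 0.02 (SE; limma adjusted p = 1.16e-07), and 176 of the 12110 tested genes had a lower log2 change. Its promoter window (RefSeq, GRCm38.p6, chrX:74428831-74429130, minus strand) is shown because the enzyme genes of this pathway are known targets of NRF2, the regulator of antioxidant genes, and the capitals mark the single match to an antioxidant response element written TGACNNNGC, read on the other strand.
G6pdx: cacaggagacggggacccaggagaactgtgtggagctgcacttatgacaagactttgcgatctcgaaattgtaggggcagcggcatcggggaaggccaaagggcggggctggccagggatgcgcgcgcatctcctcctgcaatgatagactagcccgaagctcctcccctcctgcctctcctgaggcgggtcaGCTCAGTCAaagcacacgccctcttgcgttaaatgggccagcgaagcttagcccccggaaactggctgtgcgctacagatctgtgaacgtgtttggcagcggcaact
That match starts 57 bases before the transcript start, and 12.4% of the 32851 windows hold the same pattern on either strand. The G6pdx window has a GC content of 60.0% and 1 copy of the GC box GGGCGG, which the Cybb window lacks and 35.7% of all windows hold. Promoter windows were found for 7 of the 9 genes, in 8 windows because Pgd has a second start, and the PU.1 core was present in the Cybb window alone. The antioxidant pattern was also present in 1 of the windows of Pgd.

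Pgd (chromosome 4, 149149991 to 149166771, minus strand) encodes 6-phosphogluconate dehydrogenase, the other NADPH-making step of the pathway. It stood at 56.8, 56.5 and 58.0 FPKM in MHCII-hi and at 89.5, 90.4 and 90.4 FPKM in MHCII-lo. The spread within each group was under 2 FPKM and the gap between the groups was many times wider. The log2 change was -0.65 (SE 0.02, limma adjusted p = 8.24e-07), a level 36.6% lower than in MHCII-lo.

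Tkt and Taldo1, of the non-oxidative arm, had smaller log2 changes than G6pdx and Pgd. Tkt (chromosome 14, 30548359 to 30574720, plus strand) encodes transketolase, which moves short carbon units between sugars with thiamine as its cofactor. It stood at 100.46, 98.9 and 100.04 FPKM in MHCII-hi and at 129, 128 and 130.01 FPKM in MHCII-lo, so the groups were well apart, and the log2 change was -0.37 ± 0.02 (SE; limma adjusted p = 7.62e-06). Taldo1 (chromosome 7, 141392199 to 141402968, plus strand) encodes transaldolase, which moves other short units between the same sugars. Its levels were 142, 138 and 143 FPKM in MHCII-hi and 171, 167 and 171 FPKM in MHCII-lo. The groups were apart by more than either range, and the log2 change was -0.27 (SE 0.02, limma adjusted p = 8.80e-05). With libraries scaled without immunoglobulin genes, Taldo1 still fell by 0.09 (limma adjusted p = 0.0133) and Tkt by 0.19 (limma adjusted p = 1.68e-04) on the log2 scale.

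**Figure D2:**
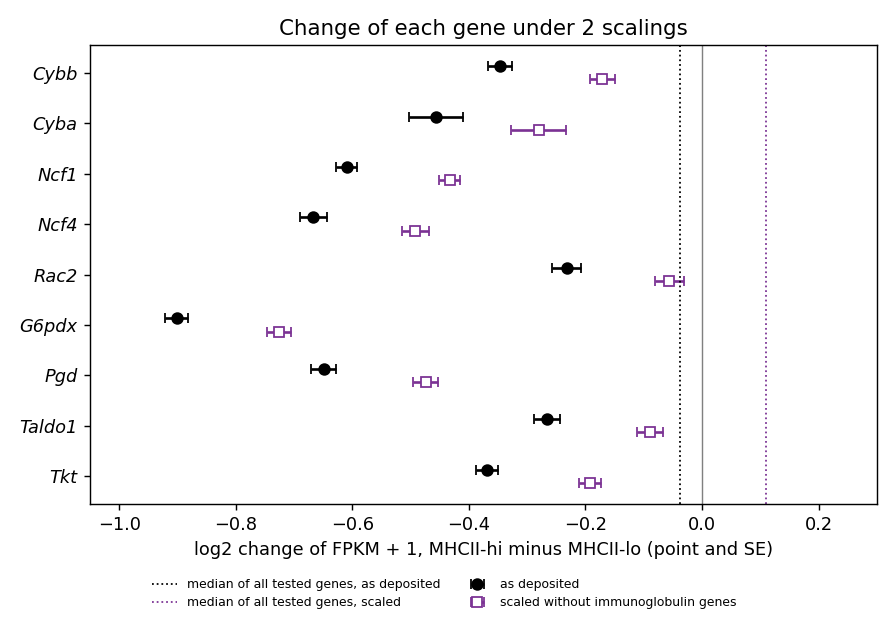
Log2 change of FPKM + 1, MHCII-hi minus MHCII-lo, for the 9 genes (point and SE from limma), as deposited (filled circles) and with libraries scaled without immunoglobulin genes (open squares). The dotted lines give the median of all tested genes, -0.04 as deposited and 0.11 scaled, and all 9 genes lie left of it under both scalings, from -0.90 for G6pdx to -0.23 for Rac2 as deposited.

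Ratios between genes within a library need no scaling between libraries. For 7 of the 8 compared the groups did not overlap, though no ratio passed a threshold of 0.05. Taldo1 stood at 1.76 ± 0.0488 times G6pdx in MHCII-hi and at 1.13 ± 0.02 times G6pdx in MHCII-lo (SD, n = 3), a difference of 0.64 in log2 ratio (SE 0.03). Tkt stood at 1.25 ± 0.0209 times G6pdx in MHCII-hi and at 0.858 ± 0.00879 times in MHCII-lo, a difference of 0.54 (SE 0.02). Transketolase RNA thus exceeded dehydrogenase RNA in every MHCII-hi library and was below it in every MHCII-lo library. Pgd stood at 0.712 ± 0.0137 times G6pdx in MHCII-hi and at 0.598 ± 0.0054 times in MHCII-lo, a difference of 0.25 (SE 0.02), which was the smallest shift against G6pdx. Among the oxidase genes, Ncf4 stood at 0.514 ± 0.00755 times Cybb in MHCII-hi and at 0.644 ± 0.0164 times in MHCII-lo, a difference of -0.33 (SE 0.02). Ncf1 stood at 1.12 ± 0.00552 times Cybb in MHCII-hi and at 1.35 ± 0.0312 times in MHCII-lo, a difference of -0.26 (SE 0.02). Rac2 went the other way, at 1.51 ± 0.0292 times Cybb in MHCII-hi and at 1.40 ± 0.0274 times in MHCII-lo, a difference of 0.12 (SE 0.02). Across the pathways, Cybb stood at 1.38 ± 0.01 times G6pdx in MHCII-hi and at 0.935 ± 0.0251 times in MHCII-lo, a difference of 0.56 (SE 0.02). For these 7 ratios the libraries of the groups did not overlap. No such share was taken over other pairs of genes. Single genes did not overlap for 36.8% of tested genes (lower in MHCII-hi) and 29.0% (higher). Each gave p = 0.10 in the exact permutation test (two-sided), which is the lowest value 3 libraries a group allow. Over the 8 ratios compared the Benjamini-Hochberg adjusted p of these exact tests was 0.114, so no ratio passed a threshold of 0.05.

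**Figure D3:**
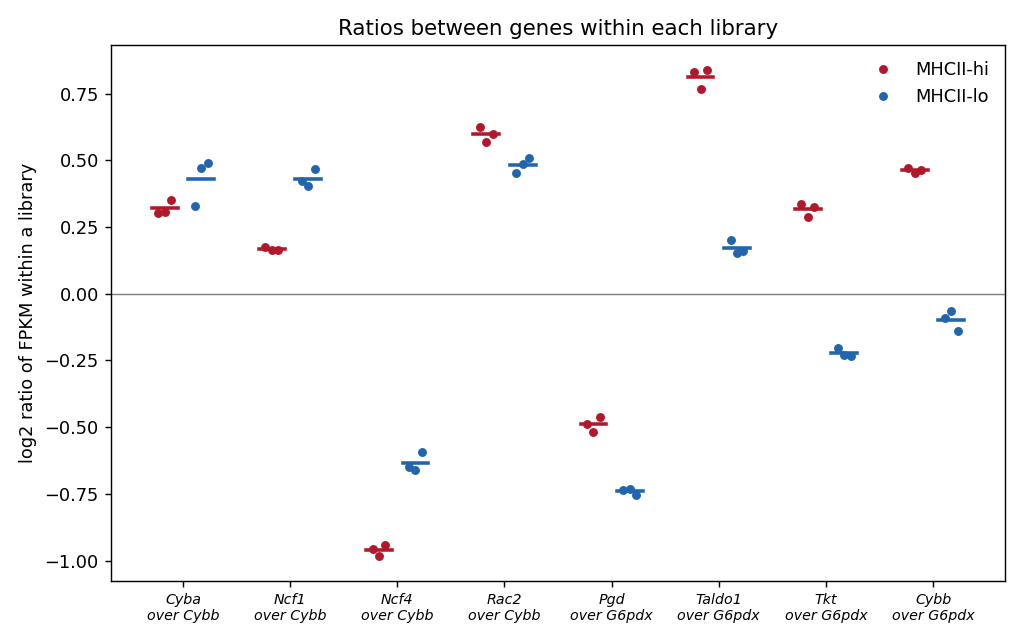
Log2 ratio of FPKM of the named genes within each library (points; MHCII-hi left and MHCII-lo right in each pair) with group means (bars). The groups overlap for Cyba over Cybb and are apart for the other 7 ratios, most widely for Taldo1 over G6pdx, at a mean ratio of 1.76 in MHCII-hi and 1.13 in MHCII-lo.

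The order of the levels differed between the fractions. In MHCII-hi cells it ran Rac2, Taldo1, Cyba, Ncf1, Cybb, Tkt, G6pdx, Pgd, Ncf4, and the libraries of neighbours overlapped for Taldo1 and Cyba and for Pgd and Ncf4. In MHCII-lo cells it ran Rac2, Cyba, Ncf1, Taldo1, G6pdx, Cybb, Tkt, Ncf4, Pgd, with overlaps between Rac2 and Cyba, between Cyba and Ncf1, and between Ncf4 and Pgd. G6pdx was above Cybb and Tkt in MHCII-lo cells and below both in MHCII-hi cells. By level Rac2 ranked 344 among all symbols in MHCII-hi and 216 in MHCII-lo, and the lowest of the 9 in MHCII-hi, Ncf4, ranked 843 in MHCII-hi and 490 in MHCII-lo. All 9 were thus among the abundant transcripts of both fractions.

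Other genes of the oxidase and its assembly were mostly lower too as deposited. Of 5 such genes 4 fell and 1 rose, beside 33.1% of all tested genes that fell and 25.5% that rose. With immunoglobulin genes left out of the scaling 2 (Rac1 and Rap1b) fell, 1 rose and 2 did not pass. Under that scaling 17.6% of all tested genes fell and 40.5% rose. The ubiquitous paralog Rac1 averaged 56.6 ± 1.49 FPKM in MHCII-hi and 71.0 ± 1.2 FPKM in MHCII-lo (SD, n = 3), below the level of Rac2 in every library. Cybc1, which encodes a chaperone of the membrane core, averaged 15.3 ± 0.157 FPKM in MHCII-hi and 16.6 ± 0.463 FPKM in MHCII-lo, and its log2 change was -0.11 as deposited (limma adjusted p = 0.0245) and 0.06, which did not pass (limma adjusted p = 0.183), when scaled without immunoglobulin genes. That scaling moved the median of all tested genes by 0.15. Rap1a, a small GTPase found with the membrane core, likewise had a log2 change of -0.11 as deposited (limma adjusted p = 0.0069) and one of 0.06 that did not pass when so scaled (limma adjusted p = 0.077). Its near copy Rap1b had a log2 change of -0.24 (limma adjusted p = 1.15e-04). Hvcn1, the proton channel that balances the charge moved by the oxidase, was the gene that rose, at 37.7 ± 0.386 FPKM in MHCII-hi and 32.7 ± 0.18 FPKM in MHCII-lo (SD, n = 3; log2 change 0.20, limma adjusted p = 4.20e-04). Of 10 other genes of the NADPH oxidase family, 7 had rows and none reached a mean of 1 FPKM. Nox4 was listed at 0 in every library, and the highest value was 1.08 FPKM for Rac3, so Cybb was the oxidase catalytic gene with a sizeable level among those with rows.

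Genes listed with the activation of the oxidase, not all of which activate it, were split in direction. So were all tested genes, of which 25.5% rose and 33.1% fell. Of 22 tested, 8 rose, 6 fell and 8 did not pass, and their median log2 change was 0.04. With libraries scaled without immunoglobulin genes 15 rose, 4 fell and 3 did not pass, beside 40.5% of all tested genes that rose and 17.6% that fell. Those that fell included Itgam and Itgb2, the chains of the complement receptor integrin of phagocytes, at 99.95 ± 5.80 FPKM in MHCII-hi and 142 ± 2.68 FPKM in MHCII-lo for Itgam and at 116 ± 3.23 FPKM in MHCII-hi and 152 ± 3.31 FPKM in MHCII-lo for Itgb2 (SD, n = 3). Arhgdib, an inhibitor that holds Rac GTPases in the cytosol, was the most abundant gene of the list and averaged 558 ± 11.5 FPKM in MHCII-hi and 729 ± 3.56 FPKM in MHCII-lo, a log2 change of -0.39 (limma adjusted p = 5.86e-06). The kinase gene Pak2 fell with a log2 change of -0.35 (limma adjusted p = 2.79e-05). Dock2, an exchange factor that loads Rac with GTP, rose to 29.2 ± 0.52 FPKM in MHCII-hi, against 23.1 ± 0.315 FPKM in MHCII-lo, with a log2 change of 0.32 (limma adjusted p = 9.64e-05). Prkca, a protein kinase C gene, had the largest change of the list, at 3.50 ± 0.085 FPKM in MHCII-hi and 1.30 ± 0.108 FPKM in MHCII-lo (log2 change 0.97, limma adjusted p = 2.31e-05). These 6 genes had the smallest p of the list.

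The remaining pentose phosphate genes were mostly lower as deposited. Of 15 in the list 12 were tested, 8 fell, none rose and 4 did not pass, beside 33.1% of all tested genes that fell. Their median log2 change was -0.32. With libraries scaled without immunoglobulin genes 5 fell, none rose and 7 did not pass, beside 17.6% of all tested genes that fell and 40.5% that rose. Rpe, the epimerase of the non-oxidative arm, fell most, to 19.8 ± 0.638 FPKM in MHCII-hi, against 32.3 ± 0.512 FPKM in MHCII-lo (SD, n = 3), a log2 change of -0.68 (limma adjusted p = 5.81e-06). That is a larger change than those of the other non-oxidative genes Taldo1 and Tkt. Rpia, the isomerase that makes ribose-5-phosphate, fell by 0.25 on the log2 scale (limma adjusted p = 8.47e-04), and its log2 change was -0.08 when scaled without immunoglobulin genes (limma adjusted p = 0.0895). Prps1, which turns ribose-5-phosphate into the precursor of nucleotides, averaged 28.9 ± 0.89 FPKM in MHCII-hi and 39.3 ± 1.44 FPKM in MHCII-lo (SD, n = 3), and reads can be split between it and its near copy Prps1l3. Pgm2 and H6pd, a microsomal hexose-6-phosphate dehydrogenase, had log2 changes of -0.40 and -0.36. Pgls, the lactonase between G6pdx and Pgd, averaged 14.02 FPKM in MHCII-hi and 14.54 FPKM in MHCII-lo, the libraries overlapped, and its log2 change was -0.05 (SE 0.05, limma adjusted p = 0.449). The retrocopy G6pd2 and the transketolase-like genes Tktl1 and Tktl2 reached at most 0.19 FPKM, so little RNA was assigned to the paralogs of G6pdx and Tkt.

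Genes listed with other sources of NADPH, not all of which make NADPH themselves, were also mostly lower. Of 14 genes 9 were tested, of which 7 fell, none rose and 2 did not pass, beside 33.1% of all tested genes that fell. With libraries scaled without immunoglobulin genes 5 fell and 1 rose, beside 17.6% of all tested genes that fell and 40.5% that rose. The supply of NADPH itself was not measured. Idh1, the cytosolic NADP-dependent isocitrate dehydrogenase, averaged 27.4 ± 2.40 FPKM in MHCII-hi and 45.1 ± 0.915 FPKM in MHCII-lo (SD, n = 3), and its log2 change was -0.70 (SE 0.06, limma adjusted p = 9.86e-05). Its mitochondrial relative Idh2 fell by 0.18 on the log2 scale (limma adjusted p = 0.00111), and its log2 change was -0.0014 when scaled without immunoglobulin genes (limma adjusted p = 0.966). Nadk, which makes NADP from NAD, averaged 40.1 ± 1.06 FPKM in MHCII-hi and 60.4 ± 0.449 FPKM in MHCII-lo (log2 change -0.58, limma adjusted p = 5.15e-06). The folate enzymes Mthfd1, Mthfd2 and Mthfd1l had log2 changes of -0.29, -0.36 and -0.36. Nnt, the mitochondrial transhydrogenase, varied widely between libraries of the same group and was listed at 15.8, 15.7 and 0 FPKM in MHCII-hi and at 7.17, 2.89 and 7.53 FPKM in MHCII-lo. It did not pass (limma adjusted p = 0.992), but without MHCII-hi replicate 3 its log2 change was 1.37 (limma adjusted p = 0.0204), so that 1 library decided the call.

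Antioxidant genes, several of which act with NADPH, were lower in MHCII-hi for the most part. Of 18 tested, 13 fell, 3 rose and 2 did not pass, beside 33.1% of all tested genes that fell and 25.5% that rose. Their median log2 change was -0.43. With libraries scaled without immunoglobulin genes 10 fell and 5 rose, beside 17.6% of all tested genes that fell and 40.5% that rose. Gsr, the glutathione reductase that spends NADPH, averaged 175 ± 1.80 FPKM in MHCII-hi and 246 ± 7.77 FPKM in MHCII-lo (SD, n = 3; log2 change -0.49, limma adjusted p = 1.01e-05). Gpx1, a glutathione peroxidase, averaged 339 ± 6.36 FPKM in MHCII-hi and 451 ± 4.97 FPKM in MHCII-lo, with a log2 change of -0.41 (limma adjusted p = 5.60e-06). The glutaredoxin Glrx had the largest change of the list, at 15.2 ± 0.458 FPKM in MHCII-hi and 29.8 ± 1.30 FPKM in MHCII-lo (log2 change -0.93, limma adjusted p = 3.99e-06). The peroxiredoxins Prdx1 and Prdx5 and the peroxidase Gpx4 fell by 0.63, 0.67 and 0.46 on the log2 scale. Catalase, Cat, was among the 3 that rose, at 29.5 ± 0.969 FPKM in MHCII-hi and 22.9 ± 1.55 FPKM in MHCII-lo (log2 change 0.35, limma adjusted p = 0.00123), and was named after its value was seen. Neither superoxide dismutase gene was called lower. Sod2 rose, with a log2 change of 0.14 (limma adjusted p = 0.0352), and Sod1 did not pass, with a log2 change of -0.07 (limma adjusted p = 0.073). Every MHCII-hi library was nonetheless below every MHCII-lo library for Sod1. Its direction rested on the scaling: without immunoglobulin genes its log2 change was 0.10 (limma adjusted p = 0.0261). Sod1 and Sod2 were also named after their values were seen.

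**Figure D4:**
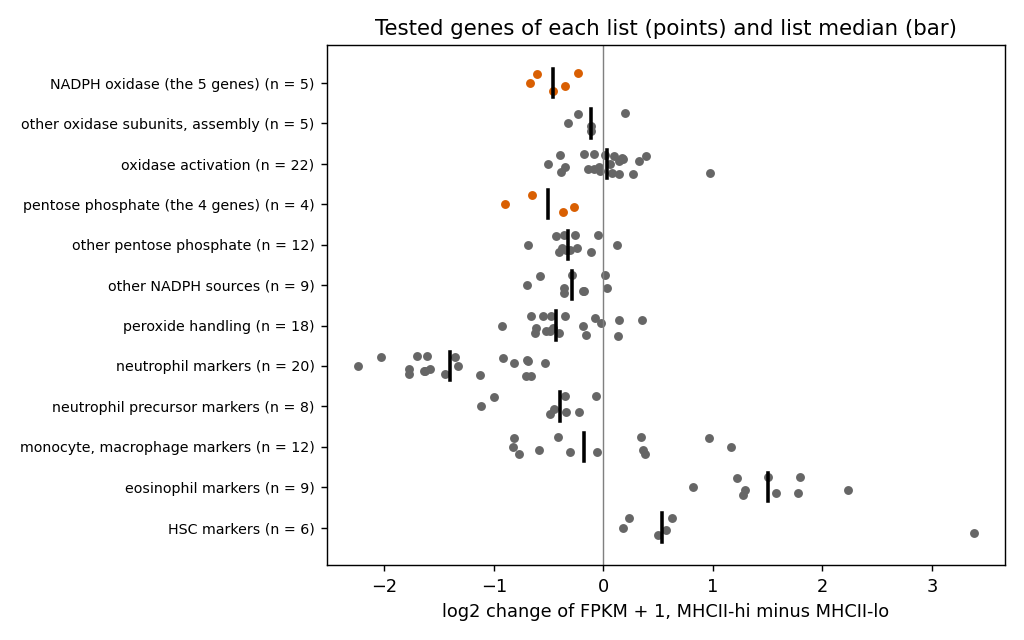
Log2 change of FPKM + 1, MHCII-hi minus MHCII-lo, of each tested gene (points) in the lists of pathway genes and of cell type markers, with the median of each list (bar); the 9 genes are in orange. The oxidase and enzyme genes have medians of -0.46 and -0.51, the neutrophil markers lie further left at -1.40, and the eosinophil markers lie right at 1.50.

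Genes whose pattern over the 6 libraries was most like that of the leading gene of each pathway were sought among 10126 tested genes, by the mean absolute difference of centred log2 values, as a description with no test. For Cybb they were Iscu, Arl6ip1, Lars, Cd24a and Mthfd2, with mean differences of 0.0089 to 0.0118 and log2 changes of -0.36 to -0.33. Mthfd2 is one of the folate enzymes above. For G6pdx they were Pygl, Pglyrp1, Tpd52, Itgb2l and Lamp2, with mean differences of 0.0183 to 0.0284 and log2 changes of -0.94 to -0.84. Pygl, the liver-type glycogen phosphorylase, averaged 44.5 ± 0.956 FPKM in MHCII-hi and 83.0 ± 0.474 FPKM in MHCII-lo (SD, n = 3). Pglyrp1, a granule protein that binds bacterial wall, averaged 78.9 ± 1.06 FPKM in MHCII-hi and 152 ± 1.48 FPKM in MHCII-lo, and Itgb2l is also in the list of neutrophil markers. With only 2 groups such likeness mainly ranks genes by an equal change.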

How the data were processed

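The mRNA libraries were stranded, per the labels' protocols. Per the submitters' processing notes, fastp, HISAT2 and StringTie were used with GRCm38 (mm10); no version or annotation is named. The values the authors deposited, 1 table for each library, were read as FPKM, since the headers state no unit. Values of low single-exon genes fell within 0.15 of whole fragments in 33.1% to 37.3% of cases, against 30% if spread evenly, so the depth is unknown and no counting error is given. Of 30803 rows, 70 repeated symbols were dropped, keeping the highest mean. Those averaging 1 FPKM or more were fitted on log2(FPKM + 1), which understates the change of low genes, with limma 3.58.1 (R 4.3.3; trend, no covariate, two-sided) and Benjamini-Hochberg adjustment over 12110 genes at 0.05. The 8 ratios were tested by exact permutation over libraries. The script was tested on simulated data: for the comparison of MHCII-hi with MHCII-lo in 12110 genes, 64% of genes changed 1.25-fold and 94% of those changed 1.5-fold were called, with 14 false calls. Few genes were changed there, none of them at a low level, and the noise was normal and independent. In the data 58.6% of tested genes were called, so the simulated shares and false calls need not carry over. Replicate numbers were not taken as pairing libraries. Coordinates are from GENCODE M21 (GRCm38). G6pdx overlaps Ikbkg, at most 6.03 FPKM, and Ncf1 overlaps Gtf2ird2, at most 4.97 FPKM, each on the other strand; whether the counting used strand is not stated in the labels. Cyba also overlaps a predicted gene on the other strand. The 9 genes, the lists and the alternatives were chosen with earlier results of these data known. Named were the 9 genes, up to 6 genes of smallest p and the paralogs in each pathway list, and the 5 genes most like Cybb and G6pdx; other genes were named after their values were seen. A gene of the oxidase list is not reported here.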

Additional observations from a re-analysis of the deposited data

How the results depend on the processing

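Each of the 9 genes was refitted under 17 alternatives: other scalings, minimums, pseudocount and moderation, a fold threshold, a replicate block, and each library left out in turn. Of the 153 refits, 150 kept the direction and the call and 0 reversed. The replicate block, the other minimums, the other moderation and the fold threshold leave the log2 change as it was. Those refits could lose the call but could not reverse. The 3 that lost the call were Rac2 scaled without immunoglobulin genes (log2 change -0.056) and, at a 1.2-fold threshold, Rac2 (-0.23) and Taldo1 (-0.27). With 1 library left out the largest adjusted p of any of the 9 was 0.0016. Same-numbered libraries deviated with correlations of -0.092, -0.0036 and -0.035, so the numbers were not taken as pairs; with the replicate block all 9 still fell (largest limma adjusted p 0.0033). Over all tested genes 3084 rose and 4009 fell. Scaled without immunoglobulin genes these were 4901 and 2131, so 30.3% of the called genes fell in place of 56.5%. A minimum of 5 FPKM gave 1792 that rose, and the 1.2-fold threshold gave 1249 that rose and 1236 that fell. No ratio reversed in 64 refits, but those with the replicate block equal the main difference and could not reverse. Cyba over Cybb ranged from -0.16 (without MHCII-lo replicate 1) to -0.079 in log2 with 1 library left out. With quantile normalization the log2 changes of the 9 genes ran from -1.19 to -0.59. Depth is unknown, so no limit of detection is given.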
